A study of Homo sapiens with 124 samples.

Results

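The UGT2 gene cluster on chromosome 4 and the UGT1A locus on chromosome 2 hold most human genes for UDP-glucuronosyltransferases, and their contacts with the nuclear lamina were compared in single KBM7 cells. The bins were taken by their position in these ranges, and the ranges were proposed with earlier results of these data known. Of the 30376 bins of 100 kb in the deposited table, 55 overlapped the ranges: 13 for the UGT2 cluster (hg19 chromosome 4, 69300001 to 70600000), 2 for the UGT1A locus (chromosome 2, 234500001 to 234700000) and 10 in each of the 4 flanks of 1 Mb. All 55 belonged to the 26426 usable bins, which hold a number for all cells and are not at 0 throughout. The 10 genes that define the ranges are UGT2B17, UGT2B15, UGT2B10, UGT2A3, UGT2B7, UGT2B11, UGT2B28, UGT2B4 and UGT2A1 on chromosome 4 and UGT1A1 on chromosome 2.

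KBM7 is an established myeloid leukaemia line that keeps a single copy of nearly all chromosomes. All samples were haploid cells of clone 14 expressing Dam fused to LaminB1, treated with 0.5 nM Shield1 for 15 h to stabilise the fusion, and sorted for small size (the smallest 2%) and for both Fucci cell cycle markers. Columns for 118 of the 124 labelled cells were used, as a single group without a control condition. The cells come from 1 clone and the labels name no separate cultures, so SDs measure the spread between these cells. A Dam-only control was not used here, so accessibility was separated from lamina contact only as far as the expected part of the ratio does so. Whether KBM7 carries every gene of both loci was not analysed here.

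UDP-glucuronosyltransferases are enzymes of the endoplasmic reticulum that attach glucuronic acid to lipophilic compounds, which can then leave the body in bile and urine. Their main sites are liver, intestine and kidney, and they are not typical of myeloid cells. The families are built differently: each UGT2B gene has its own full set of exons and the genes stand side by side as duplicated copies, whereas the UGT1A genes have separate first exons that are all joined to the same downstream exons. The nuclear lamina is the protein meshwork under the nuclear envelope, and gene-poor, late-replicating and A+T-rich DNA is known to lie against it often. RNA was not measured here, so no expression level stands beside the contacts.

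The members differ in what they act on. UGT2B17 and UGT2B15 conjugate androgens, UGT2B10 acts on amines such as nicotine, UGT2B7 on morphine and many other drugs, UGT2B4 and UGT2A3 on bile acids, and UGT2A1 is known from the olfactory epithelium. UGT1A1 is the enzyme that conjugates bilirubin. In the RefSeq gene order, the 9 chromosome 4 members and UGT2A2 follow TMPRSS11E and YTHDC1, a nuclear reader of methylated RNA, and are followed by the sulfotransferase genes SULT1B1 and SULT1E1, the casein genes CSN1S1 and CSN2, and the saliva protein genes STATH and HTN3. On chromosome 2, the RefSeq order runs from ATG16L1, SAG, DGKD and USP40 through UGT1A8, UGT1A10, UGT1A9, UGT1A7, UGT1A6, UGT1A5, UGT1A4, UGT1A3 and UGT1A1 to MROH2A, HJURP, TRPM8 and SPP2. The annotation at hand is of GRCh38.p14 and the bins are of hg19, so single genes were not assigned to single bins, and each value is that of a 100 kb bin.

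The sequence upstream of the genes shows what the assay can read there and how alike the copies are. Dam methylates GATC, and only fragments between methylated GATC motifs are amplified, so DNA without the motif gives no signal of its own. Upstream windows of 250 bases ending at the annotated gene start were taken from RefSeq (GRCh38.p14), where 7 of the 10 members had an entry. UGT2B17, UGT2B28 and UGT2B4 are named only. The windows printed are UGT2B7, with 2 GATC motifs, UGT2B10 and UGT2B11, a pair of near copies, UGT1A1, without the motif, and UGT1A3 and UGT1A4, near copies of which 1 has it. They read 5′ to 3′ on the gene's strand, and capitals mark GATC.
UGT2B7 (chr4:69096224-69096473, strand +): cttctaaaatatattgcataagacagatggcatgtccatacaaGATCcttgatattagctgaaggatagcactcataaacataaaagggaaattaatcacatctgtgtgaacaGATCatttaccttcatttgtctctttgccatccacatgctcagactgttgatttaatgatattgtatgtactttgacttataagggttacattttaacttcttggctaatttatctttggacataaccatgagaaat
UGT2B10 (chr4:68815744-68815993, strand +): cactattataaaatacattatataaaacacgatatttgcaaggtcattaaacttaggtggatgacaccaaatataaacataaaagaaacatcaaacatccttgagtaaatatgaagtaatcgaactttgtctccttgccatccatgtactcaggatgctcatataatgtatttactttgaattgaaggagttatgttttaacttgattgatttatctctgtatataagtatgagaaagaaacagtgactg
UGT2B11 (chr4:69214749-69214998, strand -): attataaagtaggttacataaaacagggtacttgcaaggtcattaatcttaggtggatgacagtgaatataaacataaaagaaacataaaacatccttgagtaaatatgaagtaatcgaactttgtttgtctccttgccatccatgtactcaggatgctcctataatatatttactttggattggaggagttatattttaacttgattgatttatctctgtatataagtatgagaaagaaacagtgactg
UGT1A1 (chr2:233760020-233760269, strand +): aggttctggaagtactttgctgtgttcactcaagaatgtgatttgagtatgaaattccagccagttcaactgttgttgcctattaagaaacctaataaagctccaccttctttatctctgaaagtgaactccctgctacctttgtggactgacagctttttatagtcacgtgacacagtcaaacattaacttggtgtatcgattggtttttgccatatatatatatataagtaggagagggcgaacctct
UGT1A3 (chr2:233728792-233729041, strand +): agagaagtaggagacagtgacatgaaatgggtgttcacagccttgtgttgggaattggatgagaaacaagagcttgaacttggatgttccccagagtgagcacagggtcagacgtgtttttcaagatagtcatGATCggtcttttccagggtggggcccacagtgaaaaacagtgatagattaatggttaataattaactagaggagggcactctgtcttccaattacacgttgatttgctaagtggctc
UGT1A4 (chr2:233718486-233718735, strand +): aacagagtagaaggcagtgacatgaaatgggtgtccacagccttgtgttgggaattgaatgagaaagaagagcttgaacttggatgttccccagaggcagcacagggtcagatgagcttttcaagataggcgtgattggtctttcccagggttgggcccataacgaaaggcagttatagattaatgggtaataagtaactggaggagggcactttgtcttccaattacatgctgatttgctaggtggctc

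GATC reads the same on both strands. It was present in 3 of the 7 UGT2 windows (UGT2B7, UGT2A1 and UGT2A2) and in 4 of the 9 UGT1A windows, against 35.8% of all 35116 RefSeq windows of the same length. The UGT2 windows were A+T-rich, with G+C from 28 to 34% and a median of 29.6%. The UGT1A windows had a median G+C of 43.2%, from 34.8 to 57.6%, and all RefSeq windows together had a median of 58%. CpG was also rarer in both families than in the typical promoter, with a median of 0 per UGT2 window and 2 per UGT1A window against 11 over all windows. UGT2B10 and UGT2B11 were identical at 90.2% of aligned positions, UGT1A5 and UGT1A4 at 90.0%, and UGT1A3 and UGT1A4 at 87.2%. Reads from such copies may be lost or shared between genes when they are mapped, and the part this plays in the values below was not tested.

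The table gives for each cell and bin the ratio of observed to expected reads, and a ratio of 1 or more was taken as contact. Contact frequency is used for a bin and counts the 118 cells in contact, in percent. Contact share is used for a region and counts its bins in contact in a given cell, in percent. Whole reads were recovered from the ratios. The median cell had 135782 of them, with extremes of 28372 and 385661, and a ratio of 1 in the genome's median bin stood for 5.63 reads in that cell. Usable bins had a median frequency of 17.8%, those of chromosome 4 a median of 53.4% and those of chromosome 2 a median of 19.5%.

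At least 1 of the 13 bins of the UGT2 cluster was in contact in 116 cells, and at least 1 of the 2 UGT1A bins in 23. A longer range has more bins that can be in contact, so the loci were compared by their contact share. The contact share of the UGT2 cluster was 53.7% ± 22.6 (SD, n = 118), with a lowest value of 0, a median of 61.5% and a highest of 92.3%. The share of the UGT1A locus was 14.0% ± 30.6 (SD, n = 118), with a median of 0 and a highest value of 100%. The difference within a cell was 39.7 percentage points ± 38.3 (SD, n = 118), and the UGT2 share was the higher in 101 cells, equal in 2 and the lower in 15. The distributions thus overlap, since some cells had all of the UGT1A locus and little of the UGT2 cluster in contact.

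**Figure D1:**
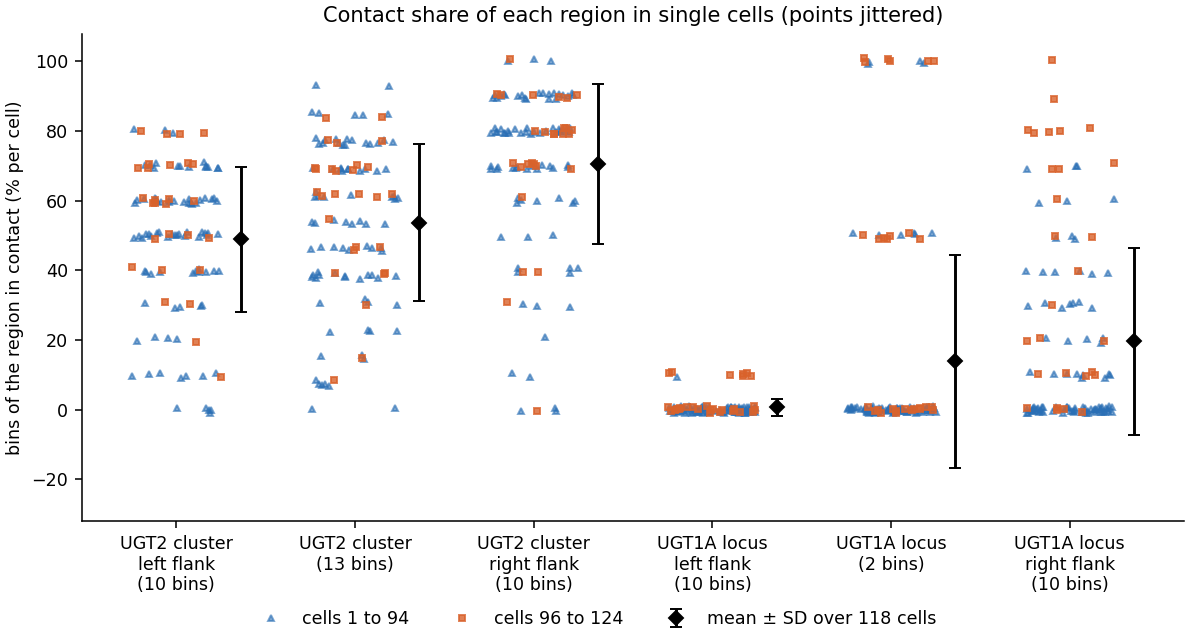
Contact share per cell (% of the bins of a region with a ratio of 1 or more, y axis) for the 6 regions on the x axis, with 1 point per cell, jittered, triangles for cells 1 to 94, squares for cells 96 to 124, and diamonds with bars for the mean ± SD over 118 cells. The 3 regions on chromosome 4 average 48.9 to 70.5%, and those on chromosome 2 average 0.678 to 19.7%.

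The bin at the midpoint of each range was compared, so that no choice among the bins of a range was made by value, though the ranges themselves were proposed with results known. The middle bin of the UGT2 cluster (69900001 to 70000000) was in contact in 67 cells, or 56.8%, and the middle bin of the UGT1A locus (234600001 to 234700000) in 14 cells, or 11.9%. In 60 cells contact was seen at the UGT2 bin alone, in 7 at the UGT1A bin alone, in 7 at both and in 44 at neither (exact two-sided McNemar test, p = 1.33e-11). The median frequencies of chromosomes 4 and 2 were themselves 53.4 and 19.5%. How often other pairs of bins from these chromosomes pass was not tested, so the p is not particular to the UGT loci. The difference was 44.4 points in cells 1 to 94 (p = 4.21e-09) and 46.4 points in cells 96 to 124 (p = 0.00235, both exact). The comparison of the middle bins thus passed the test in each set of sample numbers. The similar size of the 2 differences holds for this UGT1A bin only. The other UGT1A bin, 234500001 to 234600000, stood at 7.78% in the first set and 42.9% in the second, against 7.78 and 25% at the middle bin.

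Values differed by sample number, a split seen in the data and named by number only, since the labels give no batch. The UGT1A share was 7.78% in the 90 cells numbered up to 94 and 33.9% in the 28 cells from 96 on. For the UGT2 cluster the means were 52.5 and 57.7%. The median of recovered reads was 133746 in the first set and 161506 in the second. The difference between the loci was therefore smaller in the second set, 23.8 points against 44.7. Its direction was the same in both, and the part of the number set in the UGT1A share was not tested further.

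Along the UGT2 cluster, the 13 bins fell into a middle stretch at intermediate frequency, a frequent stretch at the right end and 2 low bins. Bins at 20 to under 80% numbered 9 of 13, against 33.9% of usable bins. Bins at 80% or more numbered 2, against 15.1%, and bins under 20% also numbered 2, against 51.1%. The median frequency over the 13 bins was 52.5%, close to that of chromosome 4 as a whole. The cluster thus stood near its own chromosome's level and above the genome's median.

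**Figure D2:**
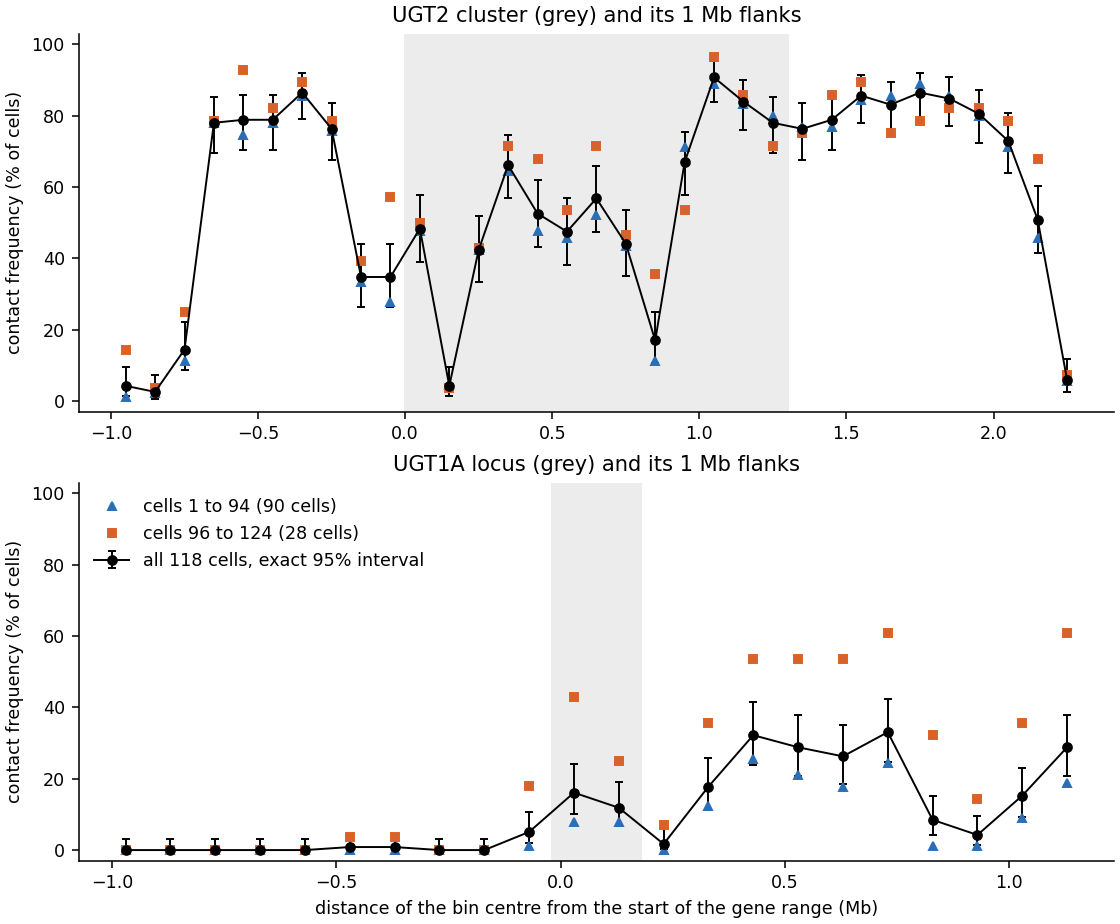
Contact frequency (% of cells, y axis) of each 100 kb bin against the distance of its centre from the start of the gene range (Mb, x axis) for the UGT2 cluster above and the UGT1A locus below, grey marking the ranges. Black points with bars are all 118 cells with exact 95% intervals, triangles cells 1 to 94 and squares cells 96 to 124. The UGT2 cluster lies between 4.24 and 90.7%, with dips at its 2nd and 9th bins, and the 2 UGT1A bins lie at 16.1 and 11.9%.

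The left end of the cluster, the side of UGT2B17 in the gene order, held a dip of a single bin. The bin at 69300001 to 69400000 was in contact in 57 cells (48.3%, exact 95% interval 39.0 to 57.7), with ratios from 0 to 5.40 and a median of 0.965. The next bin, 69400001 to 69500000, was in contact in 5 cells (4.24%, 1.39 to 9.61), with a median ratio of 0, a highest ratio of 3.68 and no read at all in 84 cells. The bin after it, 69500001 to 69600000, was back at 50 cells (42.4%, 33.3 to 51.8), with a median ratio of 0.846. The 2nd and 3rd bins had the same expected reads, 0.49 times those of the median bin, and 60 and 322 recovered reads over all cells. In the number sets the dip stood at 4.44 and 3.57%. Copy number was not analysed here, so missing DNA and missing contact cannot be told apart in this bin.

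The middle of the cluster was in contact in 44.1 to 66.1% of the cells at a contact value of 1. The bin at 69600001 to 69700000 reached 78 cells (66.1%), with a median ratio of 1.50 and a highest of 6.31. The bins at 69700001, 69800001, 69900001 and 70000001 had 62, 56, 67 and 52 cells in contact, or 52.5, 47.5, 56.8 and 44.1%, and median ratios of 1.05, 0.864, 1.23 and 0.933. None of the 4 differences between direct neighbours from the 66.1% bin to the 44.1% bin passed the test described below, so no order among these 5 neighbours is drawn. Each of these bins was without a read in 17 to 28 cells. Their level depends on the contact value, with 65.3 to 81.4% at a value of 0.5 and 18.6 to 33.1% at a value of 2, and after thinning they ranged from 32.1 to 78.0%.

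The right end of the cluster held a further dip and then its most frequent contacts. The bin at 70100001 to 70200000 was in contact in 20 cells (16.9%, 10.7 to 25.0), with a median ratio of 0 and no read in 88 cells. By number set this bin stood at 11.1 and 35.7%, against 43.3 and 46.4% in the bin to its left and 71.1 and 53.6% in the bin to its right, so the dip was shallower in the second set. The bin to the right, 70200001 to 70300000, was in contact in 79 cells (66.9%, 57.7 to 75.3), with a median ratio of 1.65 and a highest of 9.21. These 2 bins had the lowest expected reads of the 55, so that a ratio of 1 stood for 1.18 and 1.19 reads in the median cell, and in 40 cells for less than 1 read. Of their contacts, 2 and 8 rested on 1 read. Recovered reads over all cells were 61 and 292. Single values in both bins are thus coarse, and for the first of them, as for the bin at 69400001, missing DNA and missing contact cannot be told apart.

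From 70300001 on, the cluster was at the level of its right flank. The bin at 70300001 to 70400000 had the highest frequency of all 55, 107 cells (90.7%, 83.9 to 95.3), above 98.1% of usable bins, with a median ratio of 2.77. The bins at 70400001 and 70500001 followed with 99 and 92 cells, or 83.9 and 78.0%, and median ratios of 1.98 and 1.80. The ratios of the 70300001 bin were also the highest of the cluster where contact was made. The median over cells in contact was 2.87 at this bin, against 1.49 to 1.51 in the bins at 69400001, 69500001 and 70100001.

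**Figure D3:**
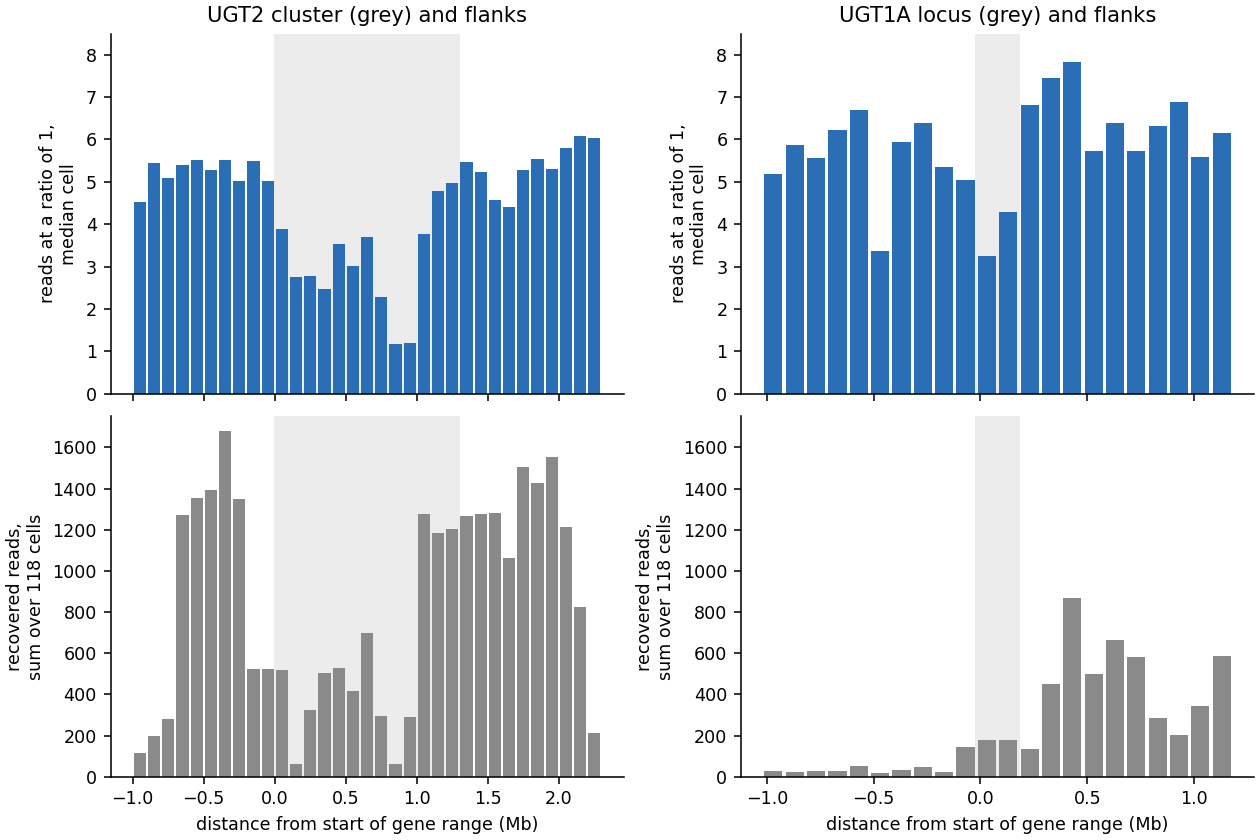
Reads that a ratio of 1 stands for in the median cell (upper panels, y axis) and recovered reads summed over 118 cells (lower panels, y axis) against the distance from the start of the gene range (Mb, x axis), for the UGT2 cluster on the left and the UGT1A locus on the right, grey marking the ranges. Expected reads are lower in most bins of the UGT2 cluster than in its flanks, down to 1.18 reads, with the last 2 bins of the cluster at 4.79 and 4.97, and the dips of the sums at 60 and 61 reads stand next to bins of equal or nearly equal expected reads with 322 and 292.

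Expected reads were lower in most bins of the UGT2 cluster than in its flanks, and its last 2 bins lay within the range of the flanks. They ranged from 0.21 to 0.88 times those of the median bin inside the cluster, with a median of 0.53, against 0.80 to 0.98 in the left flank and 0.78 to 1.08 in the right. Over the genome, bins with 0.3 to under 0.6 times the median were rare, 596 or 2.26% of usable bins, and had a median frequency of 5.08%. The cluster held 5 such bins, of which 4 were at 42.4 to 66.1%. Without the bins at 70100001 and 70200001 the mean share of the cluster was 55.9%, and without the 2 low bins it was 61.6%. Neither setting moved the share by as much as 1 SD between cells, 22.6 points, a wide criterion that large moves also meet.

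The flanks of the cluster were themselves in frequent contact, and they ended in sharp steps. In the left flank, the bins at 68300001, 68400001 and 68500001 had 5, 3 and 17 cells in contact, or 4.24, 2.54 and 14.4%. The next 5 bins, from 68600001 to 69100000, had 90 to 102 cells, or 76.3 to 86.4%. The last 2 before the cluster had 41 cells each, or 34.7%, and median ratios of 0.586 and 0.670. The left flank thus held a plateau of 0.5 Mb that ended before the cluster began.

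In the right flank, the first 7 bins ranged from 76.3 to 86.4%, with median ratios from 1.88 to 2.44. The bins at 71300001 and 71400001 followed with 86 and 60 cells, or 72.9 and 50.8%. The last, 71500001 to 71600000, had 7 cells, or 5.93%. Per cell, 48.9% ± 20.8 of the left flank and 70.5% ± 23.0 of the right flank were in contact (SD, n = 118). The cluster exceeded its left flank by 4.82 points ± 20.0, with 68 of 118 cells in this direction and 49 in the other. It lay below its right flank by 16.8 points ± 21.8, with 94 of 118 cells in this direction and 23 in the other. These SDs give the spread between cells, and the mean differences were not tested.

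Steps between neighbouring bins were tested for all 26246 pairs of directly neighbouring usable bins (exact two-sided McNemar test, Benjamini-Hochberg adjustment over all pairs, threshold 0.05). Over the genome 21.8% of pairs passed, 10.9% with the right bin higher and 11% with the left bin higher. In both loci with their flanks, 18 of 53 pairs passed, 11 with the right bin higher and 7 with the left. The share was 11 of 32 around the UGT2 cluster and 7 of 21 around the UGT1A locus. Within the UGT2 cluster itself, 6 of 12 pairs passed. Those at 69.4, 69.5, 70.1 and 70.2 Mb border the 2 low bins, where missing DNA and missing contact cannot be told apart. The genome's pairs include some in which neither bin had a contact, and these cannot pass. Of usable bins, 22.3% were in contact in no cell. The shares of passing pairs were not compared by a test.

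The largest step of all 53 pairs lay in the left flank, at 68.6 Mb, where the frequency was 63.6 points higher on the right, with 78 cells in contact at the right bin alone and 3 at the left bin alone (adjusted p = 1.60e-17). At 69.1 Mb it was 41.5 points lower on the right (adjusted p = 2.41e-12). A smaller step of 11.9 points stood at 68.5 Mb (adjusted p = 0.00362), and it did not pass at a contact value of 0.5 or 2 or in either number set alone. The steps at 68.6 and 69.1 Mb enclose the left plateau, and that at 69.1 Mb precedes the cluster. The step at 68.5 Mb lies to the left of the plateau.

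Inside the cluster, the steps at 69.4, 69.5, 70.1 and 70.2 Mb marked the dips, and those at 69.6 and 70.3 Mb bordered neither dip. At 69.4 Mb the frequency was 44.1 points lower on the right, and 54 cells had contact on the left side alone against 2 on the right (adjusted p = 2.36e-12). At 69.5 Mb it was 38.1 points higher (adjusted p = 6.20e-10), and at 69.6 Mb a further 23.7 points higher (adjusted p = 0.000374). At 70.1 Mb it was 27.1 points lower (adjusted p = 2.26e-05). At 70.2 Mb it was 50 points higher, with 65 cells in contact on the right alone and 6 on the left alone (adjusted p = 6.45e-12), and at 70.3 Mb 23.7 points higher (adjusted p = 1.03e-05). Expected reads also change at 70.3 Mb. A ratio of 1 stood for 1.19 reads in the median cell to its left and for 3.78 to its right. The part of this in the step was not tested. In the 28 cells of the second number set, the steps at 69.6, 70.1 and 70.2 Mb and that at 71.4 Mb in the right flank did not pass the test. Their differences there were 28.6, -10.7, 17.9 and -10.7 points (right minus left), so the last 3 were also smaller in size than over all cells.

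Neither edge of the cluster coincided with a called step. At 69.3 Mb the difference was 13.6 points (adjusted p = 0.0604), and at 70.6 Mb the right bin was 1.69 points lower (adjusted p = 1.00). The right flank stayed level up to 71.4 Mb, where the frequency was 22.0 points lower on the right (adjusted p = 0.000602). At 71.5 Mb it was 44.9 points lower, and no cell had contact on the right side alone against 53 on the left alone (adjusted p = 1.86e-14). By the called steps, the frequent stretch that begins inside the cluster at 70.3 Mb thus went on through the flank up to 71.4 Mb. Its start at 70.3 Mb falls on the change in expected reads given above, so its exact place is uncertain. The bin between 71.4 and 71.5 Mb stood at 50.8%.

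At a contact value of 1, most single cells had parts of the cluster in contact. No cell had all 13 bins in contact, 2 cells had none, and 116 had some. More than 50% of the bins were in contact in 69 cells. Contact bins formed 2.75 ± 1.04 separate runs per cell (SD, n = 118), from 0 to 5. The longest run of a cell spanned 0.398 Mb ± 0.200, with a median of 0.4 Mb, and 43 cells had a longest run of exactly 4 bins. In 2 cells the longest run reached 1.1 Mb. The 2 low bins bear on these numbers: no cell had both of them in contact, and in 40 of the 43 cells all 4 bins to the right of the second dip were in contact. Without these 2 bins, a setting chosen after seeing the data, 6 cells had all 11 remaining bins in contact, with 2.21 ± 0.914 runs per cell and a longest run of 0.465 Mb ± 0.253 (SDs, n = 118). Expected reads in the cluster had a median of 0.53 times those of the median bin. The part of this low depth in the breaks between runs was not tested.

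**Figure D4:**
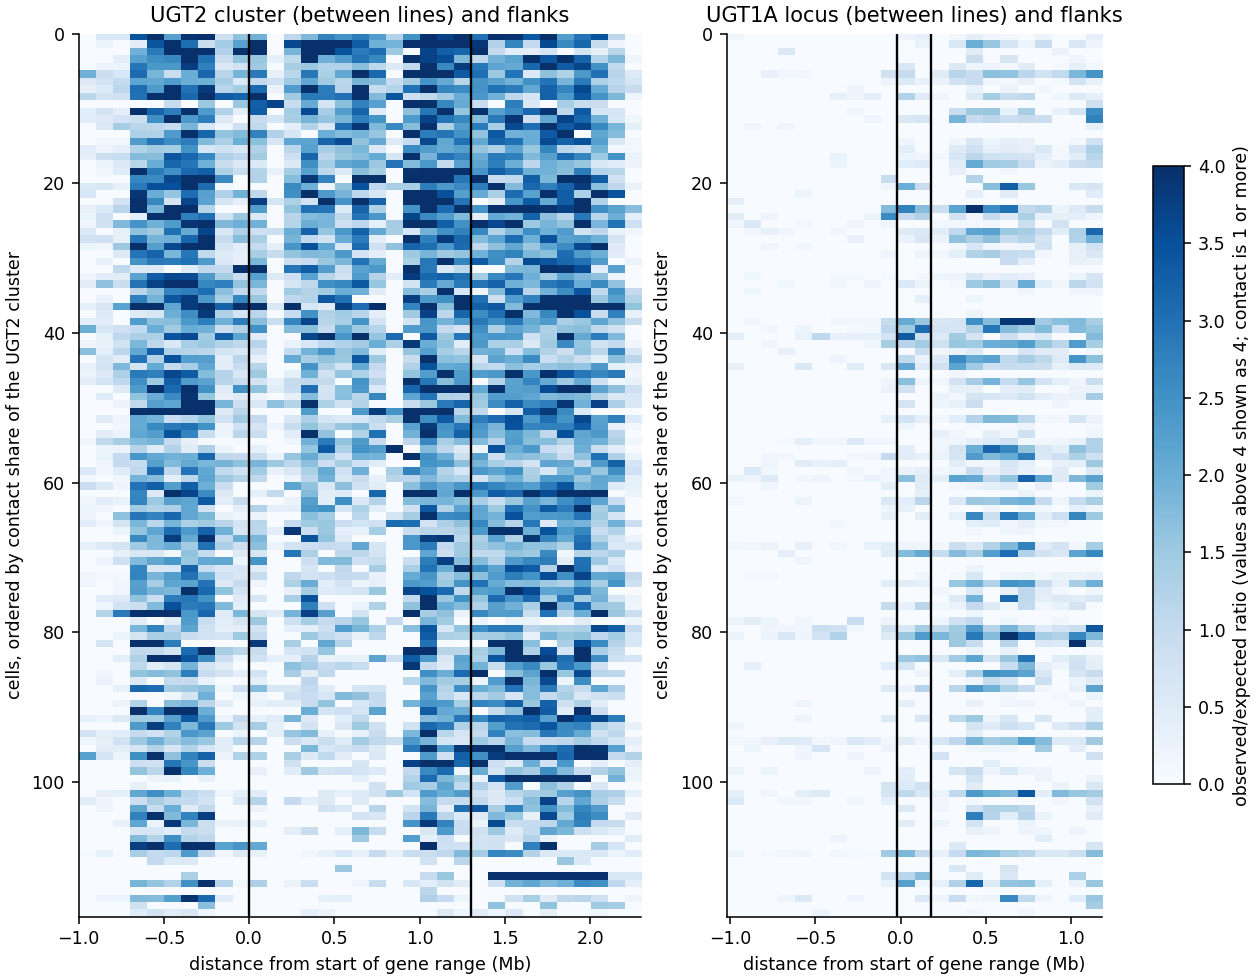
Observed/expected ratio (colour, 0 to 4, values above 4 shown as 4) in each of the 118 cells (rows, ordered by the contact share of the UGT2 cluster, the same order in both panels) along the UGT2 cluster (left) and the UGT1A locus (right) with flanks, by distance from the start of the gene range (Mb, x axis). Vertical lines enclose the ranges. The 2 low bins of the UGT2 cluster appear as pale columns, and cells with dark UGT1A bins are scattered over the whole order.

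Contact of the cluster went with contact of its flanks in the same cells. More than 50% of both the cluster and its right flank was in contact in 65 cells, of the right flank alone in 32, of the cluster alone in 4 and of neither in 17. For the left flank the numbers were 44 for both, 10 for the flank alone, 25 for the cluster alone and 39 for neither. Both flanks were above 50% in 51 cells, and in 9 of these the cluster was at 50% or less. The fewest cells were thus those with most of the cluster and at most 50% of the right flank in contact.

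Over the 118 cells, the share of the cluster had a Pearson correlation of 0.578 with its left flank (Spearman's rho 0.522) and of 0.542 with its right flank (rho 0.441). Both flanks, separated by 1.3 Mb, had 0.564 with each other. Without the 2 cells farthest from the median these were 0.538, 0.500 and 0.550. The points share the reads of a cell, and with the contact share of the whole cell removed by regression the values were 0.517, 0.459 and 0.476. With each cell thinned to 50000 reads, the values with the left and right flank were 0.307 and 0.230. In the 104 cells with at least 3 reads at a ratio of 1 they were 0.534 and 0.481. These correlations are descriptions, and the cause of the lower values after thinning, which also left out 9 cells, was not tested.

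Within the cluster, neighbouring bins had a mean correlation of 0.250 over cells (12 pairs, from -0.0101 to 0.452), bins 2 or 3 apart 0.221 (21 pairs) and bins 4 to 12 apart 0.169 (45 pairs). Neighbours in the left and right flank had 0.309 and 0.348. Part of the cluster's bins are shallow, and a shallow bin is in contact on few reads. The UGT2 share had a correlation of 0.226 with the recovered reads of a cell (rho 0.286), and the part of depth in the bin correlations was not tested.

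**Figure D5:**
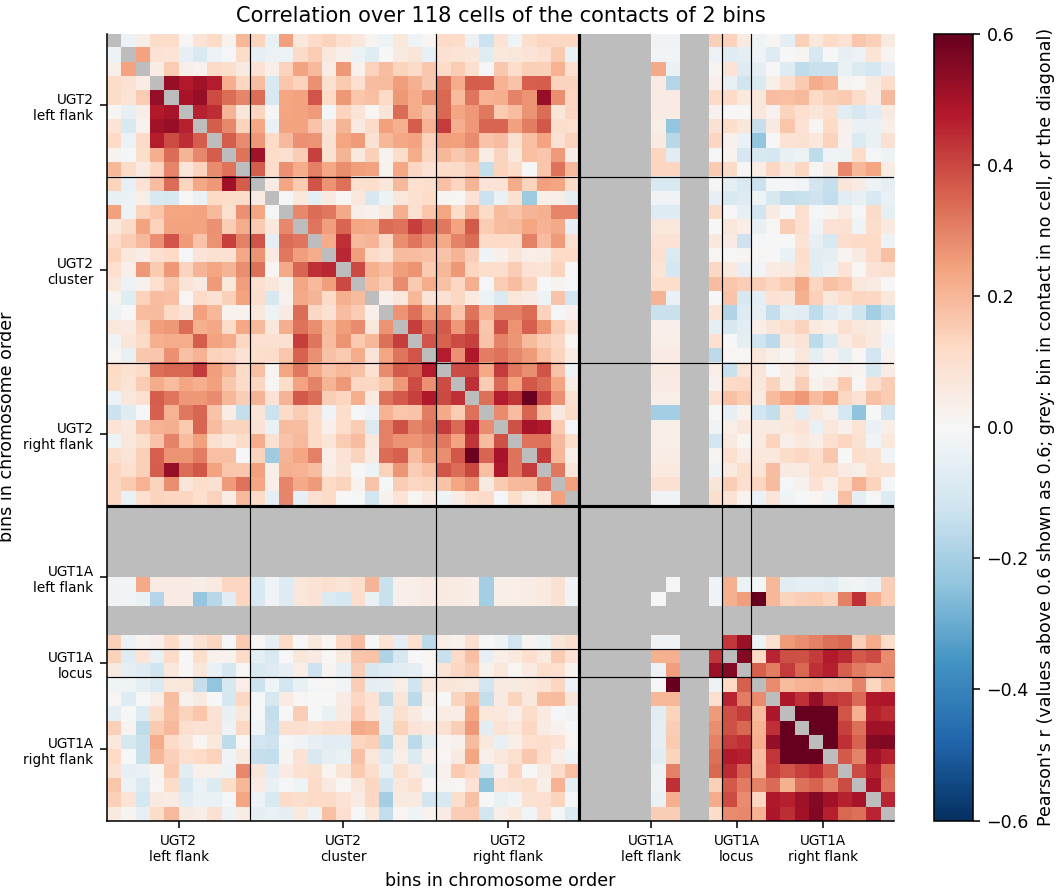
Pearson correlation over 118 cells (colour, -0.6 to 0.6, higher values shown as 0.6) of the contacts of each pair of the 55 bins, both axes in chromosome order, with lines between regions and grey for the diagonal and for the 7 bins in contact in no cell. Red blocks lie within chromosome 4 and within the right part of the chromosome 2 range, and the blocks between the chromosomes are pale, with a mean of -0.0142 over the 26 pairs of a UGT2 cluster bin and a UGT1A bin.

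The UGT1A locus stood at 16.1 and 11.9%, between direct neighbours at 5.08 and 1.69%, and more frequent contact began 1 bin further right. These frequencies exceeded those of 48.8 and 45.9% of usable bins, and the median of chromosome 2 was 19.5%. The bin at 234500001 to 234600000 was in contact in 19 cells (16.1%, exact 95% interval 9.98 to 24.0), with a median ratio of 0, a highest ratio of 3.36 and no read in 65 cells. The bin at 234600001 to 234700000 was in contact in 14 cells (11.9%, 6.64 to 19.1), with a median ratio of 0, a highest ratio of 3.07 and no read in 68 cells. They did not differ by the test (4.24 points, adjusted p = 0.613). Their expected reads were 0.58 and 0.76 times those of the median bin, so a ratio of 1 stood for 3.24 and 4.29 reads in the median cell. By number set, the frequencies were 7.78 and 42.9% for the left bin and 7.78 and 25% for the right.

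In the left flank of the UGT1A locus, on the side of USP40 and DGKD in the gene order, 7 of 10 bins were in contact in no cell, for which a limit of 3 counts gives 2.54% and the exact upper bound is 3.08%. Over the genome, 22.3% of usable bins had no contact in any cell. Bins at 234000001 and 234100001 had 1 cell each, and the bin at 234400001, next to the locus, had 6 cells, or 5.08%. The flank's share was 0.678% ± 2.52 (SD, n = 118), and 110 cells had no contact in it. Expected reads in this flank ranged from 0.60 to 1.19 times the median bin, so these low counts were not accompanied by low expected reads in most of its bins.

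In the right flank, on the side of HJURP and TRPM8, the bin at 234700001 had 2 cells in contact, or 1.69%. The bins from 234800001 to 235300000 had 21, 38, 34, 31 and 39 cells, or 17.8, 32.2, 28.8, 26.3 and 33.1%. The bins at 235300001 and 235400001 were lower again, with 10 and 5 cells, and those at 235500001 and 235600001 had 18 and 34. The flank's share was 19.7% ± 26.8 (SD, n = 118), 59 cells had no contact in it and 1 cell had all of it in contact. By number set the mean was 13.1 and 40.7%. No bin of the right flank reached the level of the frequent plateaus on chromosome 4.

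Both edges of the UGT1A locus were called as steps, unlike those of the UGT2 cluster. At 234.5 Mb the frequency was 11.0 points higher on the right, 14 cells against 1 (adjusted p = 0.00618), and at 234.7 Mb it was 10.2 points lower, 12 cells against 0 (adjusted p = 0.00345). The step at 234.5 Mb did not pass at a contact value of 0.5 or 2, in either number set alone or after thinning, where the difference was 0 points. The step at 234.7 Mb did not pass at a contact value of 2 or in either number set alone. Whether edges differ between the loci was not tested.

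Further right, steps up of 16.1 and 14.4 points at 234.8 and 234.9 Mb (adjusted p = 4.39e-05 and 0.00590) led into the occasional stretch, and a step down of 24.6 points at 235.3 Mb, 30 cells against 1, closed it (adjusted p = 5.29e-07). Steps up of 11.0 and 13.6 points followed at 235.5 and 235.6 Mb (adjusted p = 0.00186 and 0.00930). None of the 9 pairs within the left flank and not the single pair within the locus passed. The step at 235.6 Mb did not pass at a contact value of 0.5 or 2, after thinning or in either number set alone, and that at 235.5 Mb did not pass at a contact value of 2 or in either number set alone. At 234.8 Mb the call was lost at a contact value of 2. In the 28 cells of the second number set alone, none of the 7 steps around the UGT1A locus passed, and all 7 kept their direction.

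The UGT1A locus was in contact at both bins in 10 cells, at 1 bin in 13 and at none in 95. The contacts of both bins had a correlation of 0.552 over cells. Contact went with that of the right flank. The 23 cells with a contact at the locus had 51.7% ± 27.6 of the right flank in contact, and the other 95 cells 11.9% ± 20.0 (SDs over cells). The correlation of the shares was 0.585 (rho 0.578), and leaving out the 2 cells farthest from the median gave 0.571. Of the 23 cells, 13 were numbered 96 or higher, and their median of recovered reads was 160747 against 132286 in the other cells, so number set and depth move with this split. Their part in it was not tested.

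The UGT2 cluster had nearly the same mean share in cells with and without contact at UGT1A. It was 53.5% ± 22.4 in the 23 cells with a UGT1A contact and 53.8% ± 22.8 in the 95 without. The correlation of both shares was -0.0164 (rho -0.00143), and -0.0372 when the 2 cells farthest from the median were left out. It was -0.113 in the first number set and 0.0629 in the second. The flanks kept the order of the loci: the left flank on chromosome 4 exceeded that on chromosome 2 by 48.2 points ± 20.6, in 113 of 118 cells with none in the other direction, and the right flanks differed by 50.8 points ± 32.6, with 104 cells in the same direction and 8 in the other.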

How the data were processed

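Single-cell DamID of LaminB1 gave 1 table of the whole series, in which the authors deposited a ratio of observed to expected reads per 100 kb bin and cell. Per the submitters' processing notes, cutadapt, Bowtie2 2.1.0 and hg19 were used. For settings and the making of the expected part, the sources used here give nothing. All columns matched a labelled sample. Labelled cells without a column (6) were not analysed here. Each ratio was a whole number of reads times 1 factor per bin and 1 per cell, and 100% of values above 0 came out whole to a tolerance of 0.02 reads. Recovered reads lack molecular identifiers, so exact Clopper-Pearson intervals (95%) cover the counting of cells only.

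Analyses used Python 3.11.15, NumPy 2.4.6, pandas 2.3.3, SciPy 1.17.1 and Biopython 1.88 and took all 118 cells as 1 group. Every pair of neighbouring usable bins was tested with the exact McNemar test and Benjamini-Hochberg adjustment, and the script was tested on simulated data. Genes named are the members, the other UGT1A genes and neighbours in the RefSeq order. Sulfation and glucuronidation genes elsewhere in the genome were not analysed here, because no annotation of hg19 was used. The members, ranges, number sets and lists were chosen with earlier results of these data known. Alternatives were other contact values, deeper or thinned cells, number sets, shorter flanks, inner bins, a Wilcoxon test and, chosen after seeing the data, 2 sets of omitted bins.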

Additional observations from a re-analysis of the deposited data

How the results depend on the processing

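In all, 47 results were recomputed under 12 alternatives, which gave 311 values. Of these, 227 met the criterion for an unmoved value, no called value changed sign, and single steps lost their call in 28 cases. The criterion was 1 SD between cells for shares, the standard error for correlations and 1.5 times for the count of steps. For the frequency of a bin it was the 95% margin of the counting error, a wider measure than the standard error used for correlations. For a step it was the side of the test. The SD of a share is wide, so that large moves also met the criterion. The UGT1A share met it at 7.78% in cells 1 to 94 and at 33.9% in cells 96 to 124, against 14.0% over all cells. At a contact value of 2, the shares of the UGT2 cluster and of its left and right flank were 28.2, 28.0 and 42.4%, those of the UGT1A locus and its right flank were 3.39 and 5.76%, against 14.0 and 19.7%, and the difference between the loci was 24.8 points. The correlation of the cluster with its right flank was 0.375 at this value. At a contact value of 0.5, the correlation with the left flank was 0.698. After thinning to 50000 reads, which kept 109 cells, the correlations with the left and right flank were 0.307 and 0.230. Without thinning, removal of the contact share of the cell took the correlation with the right flank from 0.542 to 0.459 over 118 cells. In cells 96 to 124 the correlations with the left and right flank were 0.496 and 0.411. In this set of 28 cells, 6 of the 18 steps passed. In cells 1 to 94, the correlation of the UGT2 and UGT1A shares was -0.113. The cause of these shifts was not tested. Wilcoxon's signed-rank test of the ratios called 33 steps, all 18 among them, and 45.9% of pairs over the genome. The middle bins kept their direction and their side of the threshold under the 6 alternatives tried, with differences from 27.1 to 52.5 points. Limiting the UGT1A range to bins wholly inside it left no bin and gives no value. No paired analysis was possible because the labels give a single group, so that no sample has a partner in another group. The pairing of bins within a cell is part of the tests themselves. Depth limits the bins at 70100001 and 70200001 most, where a ratio of 1 is little more than 1 read in the median cell.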
